A study of Mus musculus with 40 samples.

Results

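Kidney transcripts were compared between the 5 mice given TCDD (2,3,7,8-tetrachlorodibenzo-p-dioxin) at 1 µg/kg and the 5 mice given 0.3 µg/kg. These 10 bulk RNA-seq libraries are all the libraries of the series' 40 that carry either dose label, and no vehicle library entered the comparison. All 10 animals were male C57BL/6 mice, aged 30 days at the start and 58 days at the end, that received TCDD in sesame oil by gavage at intervals of 4 days over 28 days. RNA came from frozen right kidney, so every cell type of the organ, and any tissue taken with it, contributes to a value. The labels name no genetic change in any animal, and beyond 5 animals per dose they give no cages, litters or extraction days, so the p-values below measure the spread between these samples.

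TCDD is slowly cleared and binds the aryl hydrocarbon receptor, a transcription factor that switches on Cyp1a1 and other enzymes of foreign-compound metabolism. Interferons are cytokines that bind cell surface receptors and act through Janus kinases on transcription factors. Interferon-gamma is best known for inducing the guanylate-binding and immunity-related GTPases, the immunoproteasome and both classes of MHC molecules, while type I interferons are best known for antiviral genes such as the Ifit and Oas families. In the kidney, MHC class II is carried mainly by resident macrophages and dendritic cells, and it can be induced on tubular and endothelial cells by interferon-gamma.

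Going from 0.3 to 1 µg/kg, 30 of 15382 genes tested were called (0.195%; edgeR quasi-likelihood test, Benjamini-Hochberg adjusted p under 0.05), and all 30 were higher at 1 µg/kg. Beside Cyp1a1 they include Irf1, a transcription factor of the interferon response, 4 interferon-inducible GTPases, 10 genes of MHC class I presentation, 5 of MHC class II and 3 macrophage markers. Their log2 fold changes ran from 0.37 to 2.01 with a median of 0.95, where the median over all genes tested was -0.0036. In 25 of the 30, all 5 samples at 1 µg/kg lay above all 5 at 0.3 µg/kg, a pattern shown by 118 (0.767%) of all genes tested. The groups overlapped for Gbp2, H2-Q4, Mpeg1, H2-DMb1 and H2-Q7. In this edgeR fit 0 genes were called lower, and DESeq2 called 61 higher and 2 lower. By edgeR, 244 genes had an unadjusted p under 0.05 with a lower level at 1 µg/kg, and 447 with a higher one. Across both directions 691 genes had an unadjusted p under 0.05, where 769 are expected by chance alone. Of the 30 genes, 14 were called in each of 17 other fits, which changed the scaling, the filter, the tool, the covariate or the libraries used.

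**Figure D1:**
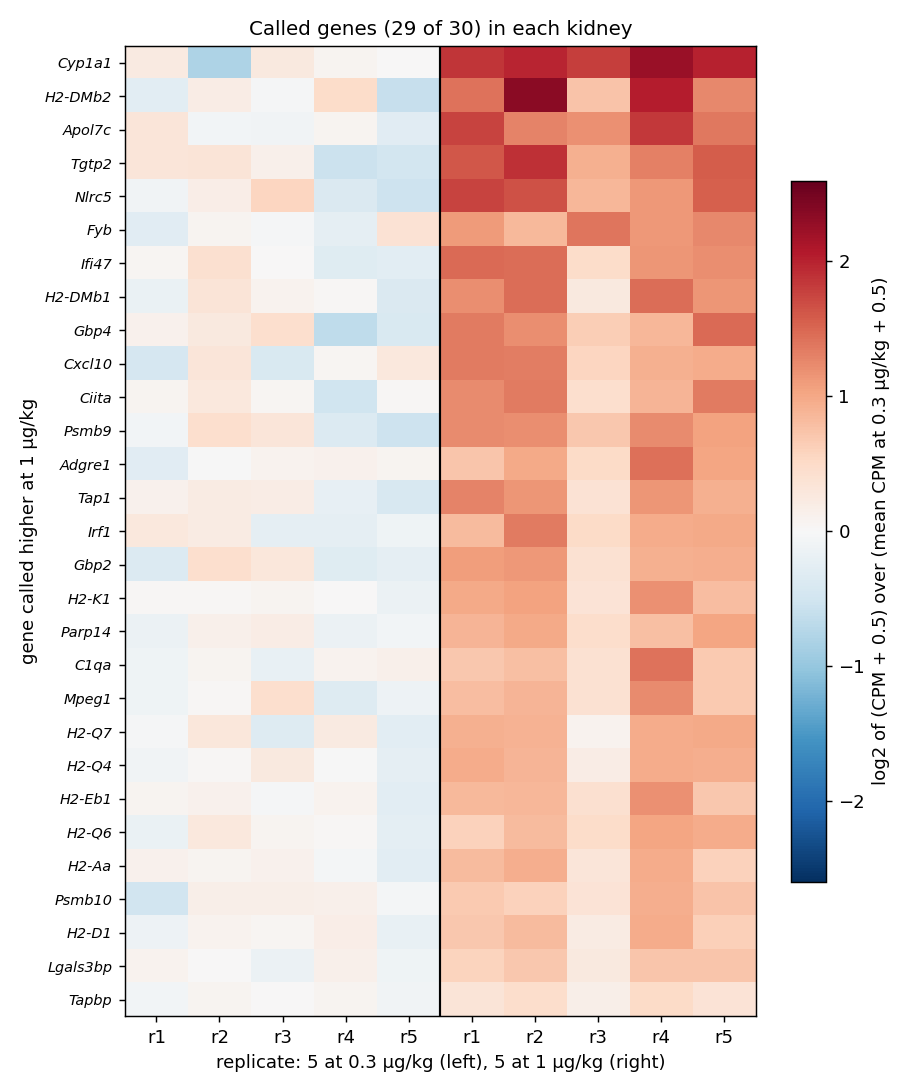
Called genes (29 of the 30; rows, in order of log2 fold change) in each of the 10 kidneys (columns), coloured by the log2 ratio of CPM + 0.5 to the gene's mean at 0.3 µg/kg + 0.5. The right-hand block at 1 µg/kg is red throughout, and its replicate 3 is the palest column, being the lowest of its group for 28 genes.

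Libraries held 15798331 to 23203466 gene counts. In 6 technical measures the lowest two-sided exact permutation p was 0.0238, for the share of reads mapping to several places (8.41% at 1 and 8.93% at 0.3 µg/kg; adjusted p = 0.143), and 5 against 5 samples cannot give less than 0.00794. Here 3 libraries were singled out after their values were seen, and single values of other libraries are given further below. At 1 µg/kg, replicate 4 held adrenal cortex transcripts: 6 adrenal genes summed to 832 CPM there and to 3.20 to 7.43 CPM in the other 9 libraries. Replicate 3 at 1 µg/kg was lowest of its group in nearly all called genes, and it also had the lowest summed fat markers of the 10 libraries, 13.7 CPM against 48.5 to 232 CPM. At 0.3 µg/kg, replicate 1 held 24.3 CPM of Egr1, an immediate early gene, against 3.71 to 6.37 CPM in the rest of that group. The number of called genes was 22 without replicate 4 at 1 µg/kg, 48 without replicate 3 at 1 µg/kg and 17 without replicate 1 at 0.3 µg/kg.

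Promoter windows were read for 5 genes to show 4 motifs: the aryl hydrocarbon receptor's core GCGTG, the interferon-stimulated response element (GAAA, any 2 bases, GAAA), the gamma-activated site TTCNNNGAA, and the CCAAT box, part of the conserved MHC class II promoter. The windows run from 250 bases before to 50 after the start, on build GRCm38.p6 from RefSeq, 5′ to 3′ on the gene's strand, with the motif named for each gene, on either strand, in capitals. Cyp1a1 (chr9:57697363-57697662, plus strand) shows 1 receptor core, Gbp2 (chr3:142620413-142620712, plus) 1 response element, Tgtp2 (chr11:49064163-49064462, minus) a gamma-activated site followed by a response element, Irf1 (chr11:53769764-53770063, plus) 1 gamma-activated site, and H2-Eb1 (chr17:34305617-34305916, plus) 2 CCAAT boxes.
Cyp1a1: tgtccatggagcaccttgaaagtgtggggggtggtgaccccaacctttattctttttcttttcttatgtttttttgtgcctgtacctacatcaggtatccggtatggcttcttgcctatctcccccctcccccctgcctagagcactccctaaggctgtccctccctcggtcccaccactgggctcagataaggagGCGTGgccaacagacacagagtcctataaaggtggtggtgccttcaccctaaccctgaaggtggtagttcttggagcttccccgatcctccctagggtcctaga
Gbp2: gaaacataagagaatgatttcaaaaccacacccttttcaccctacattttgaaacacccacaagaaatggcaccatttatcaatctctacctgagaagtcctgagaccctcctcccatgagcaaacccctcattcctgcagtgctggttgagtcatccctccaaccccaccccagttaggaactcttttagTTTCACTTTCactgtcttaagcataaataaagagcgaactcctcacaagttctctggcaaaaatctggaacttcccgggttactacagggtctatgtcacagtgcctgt
Tgtp2: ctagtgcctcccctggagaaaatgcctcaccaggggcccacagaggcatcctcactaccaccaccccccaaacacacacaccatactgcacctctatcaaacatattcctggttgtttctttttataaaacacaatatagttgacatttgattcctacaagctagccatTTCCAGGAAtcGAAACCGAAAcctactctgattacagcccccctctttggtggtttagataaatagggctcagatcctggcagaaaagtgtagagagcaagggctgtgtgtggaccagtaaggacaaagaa
Irf1: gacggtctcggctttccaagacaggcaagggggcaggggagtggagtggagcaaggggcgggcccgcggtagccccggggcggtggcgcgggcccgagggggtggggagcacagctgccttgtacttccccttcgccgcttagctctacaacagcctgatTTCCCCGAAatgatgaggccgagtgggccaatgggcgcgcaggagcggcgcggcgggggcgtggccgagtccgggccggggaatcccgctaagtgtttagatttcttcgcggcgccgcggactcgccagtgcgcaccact
H2-Eb1: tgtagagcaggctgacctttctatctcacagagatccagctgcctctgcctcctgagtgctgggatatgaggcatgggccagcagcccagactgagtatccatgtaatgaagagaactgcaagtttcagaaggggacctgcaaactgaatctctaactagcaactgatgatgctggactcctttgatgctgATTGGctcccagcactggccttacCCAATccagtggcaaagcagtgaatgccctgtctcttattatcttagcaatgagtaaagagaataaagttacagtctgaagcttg

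The table of windows held 23 of the 30 genes. The response element was found in 4 of them (17.4%): Apol7c, Cxcl10, Gbp2 and Tgtp2. It was in 3.83% of the genes tested that had a window. Both shares count genes, and a gene may have several windows. Counted per window, it was in 3.44% of all 32851 windows. For the gamma-activated site these were 3 genes (13.0%: H2-DMb2, Irf1 and Tgtp2), 8.33% of such genes tested and 8.30% of windows. GCGTG was in 10 genes (43.5%), against 53.5% of such genes tested and 32.4% of all windows. CCAAT was in 16 genes (69.6%), against 42.1% and 37.4%. Among the 16 are H2-D1, H2-K1, H2-Q4, H2-Q6 and H2-Q7, which are near copies of each other, and both Psmb9 and Tap1. Several of these also count for GCGTG, so neither share rests on independent genes. In Gbp2 the response element begins 59 bases before the start, and in Tgtp2 the gamma-activated site and the response element begin 81 and 70 bases before it. The printed Irf1 window also holds a GCGTG that begins 32 bases and a CCAAT that begins 63 bases before the start, both left in lower case. Psmb9 and Tap1 lie head to head, and their windows share 275 of 300 bases. These matches describe letters in a window and were not tested against the expression values.

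Cyp1a1, the cytochrome P450 that marks activation of the aryl hydrocarbon receptor, had the largest fold change of the 30. Its level was 29.1, 13.9, 29.7, 26.1 and 24.9 CPM at 0.3 µg/kg and 90.9, 99.6, 87.2, 118 and 101 CPM at 1 µg/kg, replicates 1 to 5. The groups were far apart, and replicate 2 was the low sample at 0.3 µg/kg. This gave a log2 fold change of 2.01 ± 0.18 (SE; n = 5 and 5, edgeR adjusted p = 0.00150). It was the only one of 13 tested genes of the receptor's battery to be called. Ahrr, the receptor's repressor, had a log2 fold change of 1.09 ± 0.44 (SE) and edgeR adjusted p = 0.990, with overlapping groups. The values for Cyp1b1 were 27.3 ± 7.92 CPM at 0.3 and 32.6 ± 4.79 CPM at 1 µg/kg (SD, n = 5; edgeR adjusted p = 1.00). Nqo1, a quinone reductase, and Aldh3a1, an aldehyde dehydrogenase, did not pass either (edgeR adjusted p = 0.840 and 1.00). The median of the battery was 0.25.

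The interferon genes themselves gave almost no reads. Ifnb1, Ifna2, Ifna4, Ifnl2 and Ifnl3 had 0 counts in all 10 libraries, which allows up to 0.129 to 0.190 CPM per library (3 counts). Ifng, the gene of interferon-gamma, had 6 counts in replicate 1 and 1 count in replicate 5 at 1 µg/kg, and 0 counts in the other 8 libraries. At this depth a difference in the ligands between doses was not detectable.

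Among 21 tested genes of interferon receptors and signalling, 2 were called higher, among them Irf1, and the list's median was 0.10. Irf1, a transcription factor induced by interferon-gamma, was at 17.7, 16.8, 12.2, 12.2 and 13.4 CPM at 0.3 µg/kg and at 26.0, 37.9, 20.5, 28.7 and 29.0 CPM at 1 µg/kg. Its groups were separate, with replicate 3 lowest and replicate 2 highest at 1 µg/kg (log2 fold change 0.97 ± 0.15 SE, edgeR adjusted p = 0.00462). The receptor chains showed log2 differences near 0 and were not called: 0.05 for Ifnar1, 0.10 for Ifnar2, 0.02 for Ifngr1 and 0.09 for Ifngr2. For the kinases these were 0.01 in Jak1, -0.15 in Jak2 and 0.05 in Tyk2. Irf8 and Irf9, partner factors of the interferon signal, missed the threshold at edgeR adjusted p = 0.0703 and 0.0719, and Irf7, which amplifies the type I response, had a log2 fold change of 0.50 ± 0.15 (SE) at adjusted p = 0.472.

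The interferon-inducible GTPases act on the vacuoles in which pathogens live. All 22 tested guanylate-binding and immunity-related GTPases had a positive log2 fold change, with a median of 1.14, but only 4 rose past the threshold: Tgtp2, Ifi47, Gbp4 and Gbp2. Tgtp2 went from 8.49, 8.59, 7.48, 4.39 and 4.72 CPM to 21.8, 26.4, 13.2, 17.4 and 21.0 CPM, a log2 fold change of 1.56 ± 0.21 (SE, edgeR adjusted p = 0.00373). Ifi47 went from 5.33, 7.06, 5.18, 4.08 and 4.17 CPM to 15.2, 15.0, 7.40, 12.0 and 12.5 CPM (1.26 ± 0.20 SE, edgeR adjusted p = 0.00462). For Ifi47 the gap between the groups was narrow, since replicate 3 at 1 µg/kg was only just above replicate 2 at 0.3 µg/kg. Gbp4 had means of 10.7 ± 3.32 and 24.1 ± 5.69 CPM (SD, n = 5) and Gbp2 of 13.3 ± 3.64 and 25.6 ± 4.73 CPM (edgeR adjusted p = 0.0452 and 0.0285). In Gbp2, replicate 3 at 1 µg/kg (17.6 CPM) lay below replicate 2 at 0.3 µg/kg (18.1 CPM). The calls of Gbp4 and Gbp2 were each lost in 7 of the 17 other fits. Some larger log2 fold changes in the family did not pass: Tgtp1 had 2.04 ± 0.43, Irgm2 1.67 ± 0.25 and Igtp 1.65 ± 0.31 (SE), with edgeR adjusted p of 0.272, 0.0539 and 0.152. These 3 genes were singled out after their values were seen. Without replicate 3 of 1 µg/kg the family had 9 called members, and without replicate 4, or without replicate 1 of 0.3 µg/kg, it had 2.

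MHC class I, which presents peptides from inside the cell to CD8 T cells, held the largest number of called genes. In this list 10 of 22 tested members were called higher and 0 lower, with a median of 0.64. Nlrc5, the transactivator of class I genes, was at 5.82, 7.10, 9.54, 4.76 and 4.17 CPM at 0.3 µg/kg and at 22.3, 20.9, 11.9, 14.3 and 19.4 CPM at 1 µg/kg. Its log2 fold change of 1.50 ± 0.22 (SE) was the highest of the list (edgeR adjusted p = 0.00519), with no overlap between groups. Genes of the peptide supply rose as well. Psmb9, a catalytic subunit of the immunoproteasome, went from 5.70, 8.29, 7.60, 4.58 and 3.99 CPM to 14.9, 14.7, 10.1, 14.9 and 12.9 CPM. Tap1, a chain of the transporter that feeds peptides into the endoplasmic reticulum, went from 16.2, 17.4, 17.0, 12.8 and 10.9 CPM to 36.9, 33.7, 19.5, 33.6 and 28.7 CPM. Both had separate groups, with log2 fold changes of 1.16 ± 0.19 and 1.04 ± 0.16 (SE) and edgeR adjusted p of 0.00598 and 0.00790. Psmb10, another such catalytic subunit, and Tapbp, the loading chaperone tapasin, had smaller rises (0.69 ± 0.13 and 0.37 ± 0.07 SE, edgeR adjusted p = 0.0285 and 0.0280), and these calls were lost in 8 and 9 of the 17 other fits.

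Of the class I heavy chains, H2-K1 went from 242, 242, 248, 237 and 213 CPM to 470, 491, 302, 537 and 415 CPM (log2 fold change 0.91 ± 0.12 SE, edgeR adjusted p = 0.00862). The 0.3 µg/kg samples were close together, and at 1 µg/kg replicate 3 was nearest to them. H2-D1, the other classical chain of this strain, had 242 ± 25.9 and 389 ± 71.5 CPM (SD, n = 5; edgeR adjusted p = 0.0426). The non-classical chains H2-Q4, H2-Q6 and H2-Q7 had log2 fold changes of 0.84, 0.82 and 0.84 (edgeR adjusted p = 0.00598, 0.00963 and 0.0380). The call of H2-D1 was lost in 12 of the 17 other fits, more than that of any other gene of the 30, and that of H2-Q7 in 7. The class I list had 6 called genes without replicate 1 of 0.3 µg/kg, and 7 without replicate 4 and 12 without replicate 3 of 1 µg/kg. B2m, the light chain shared by all of them, had 222 CPM and 413 CPM as group means but missed the threshold (log2 fold change 0.89, edgeR adjusted p = 0.0719). H2-K1, H2-D1 and the H2-Q genes are near copies of each other, as are Tgtp1 and Tgtp2 or H2-DMb1 and H2-DMb2. Reads mapping to several places were left out of the counts, so levels of such copies rest on reads that mapped to 1 place. How far these reads were assigned to the right copy was not tested.

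MHC class II, which presents peptides taken up from outside the cell to CD4 T cells, had 5 of 10 tested members called higher and a median of 1.18. Ciita, the transactivator of class II genes, was at 4.89, 5.70, 4.83, 3.09 and 4.77 CPM at 0.3 µg/kg and at 11.6, 12.6, 6.52, 8.97 and 12.7 CPM at 1 µg/kg (log2 fold change 1.16 ± 0.20 SE, edgeR adjusted p = 0.00808). H2-Aa, the alpha chain of I-A, went from 70.7, 68.6, 70.9, 62.8 and 54.2 CPM to 116, 126, 81.0, 127 and 99.1 CPM. H2-Eb1, the beta chain of I-E, went from 63.7, 65.3, 59.1, 65.0 and 50.4 CPM to 110, 111, 81.3, 140 and 98.9 CPM. In all 3 genes the groups were separate and replicate 3 was the lowest at 1 µg/kg. H2-DMb2, a chain of the peptide exchanger H2-M, had 1.38 ± 0.53 CPM at 0.3 and 5.48 ± 2.61 CPM at 1 µg/kg (SD, n = 5), a log2 fold change of 1.99 ± 0.33 (SE, edgeR adjusted p = 0.00790). H2-DMb1 had 1.19 ± 0.21 (SE, edgeR adjusted p = 0.0313), and this call was lost in 10 of 17 other fits. H2-Ab1 and Cd74, the I-A beta chain and the invariant chain, had large log2 fold changes of 1.41 and 1.28 that were not called (edgeR adjusted p = 0.108 and 0.152), and both were singled out after their values were seen. Without replicate 3 of 1 µg/kg, 8 class II genes were called, and without replicate 1 of 0.3 µg/kg, 3. With all 35 TCDD libraries in the fit, Ciita, H2-Aa, H2-DMb1 and H2-DMb2 were not called, and of the 5 only H2-Eb1 was. With all 40 libraries, Ciita and H2-DMb2 were not called.

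**Figure D2:**
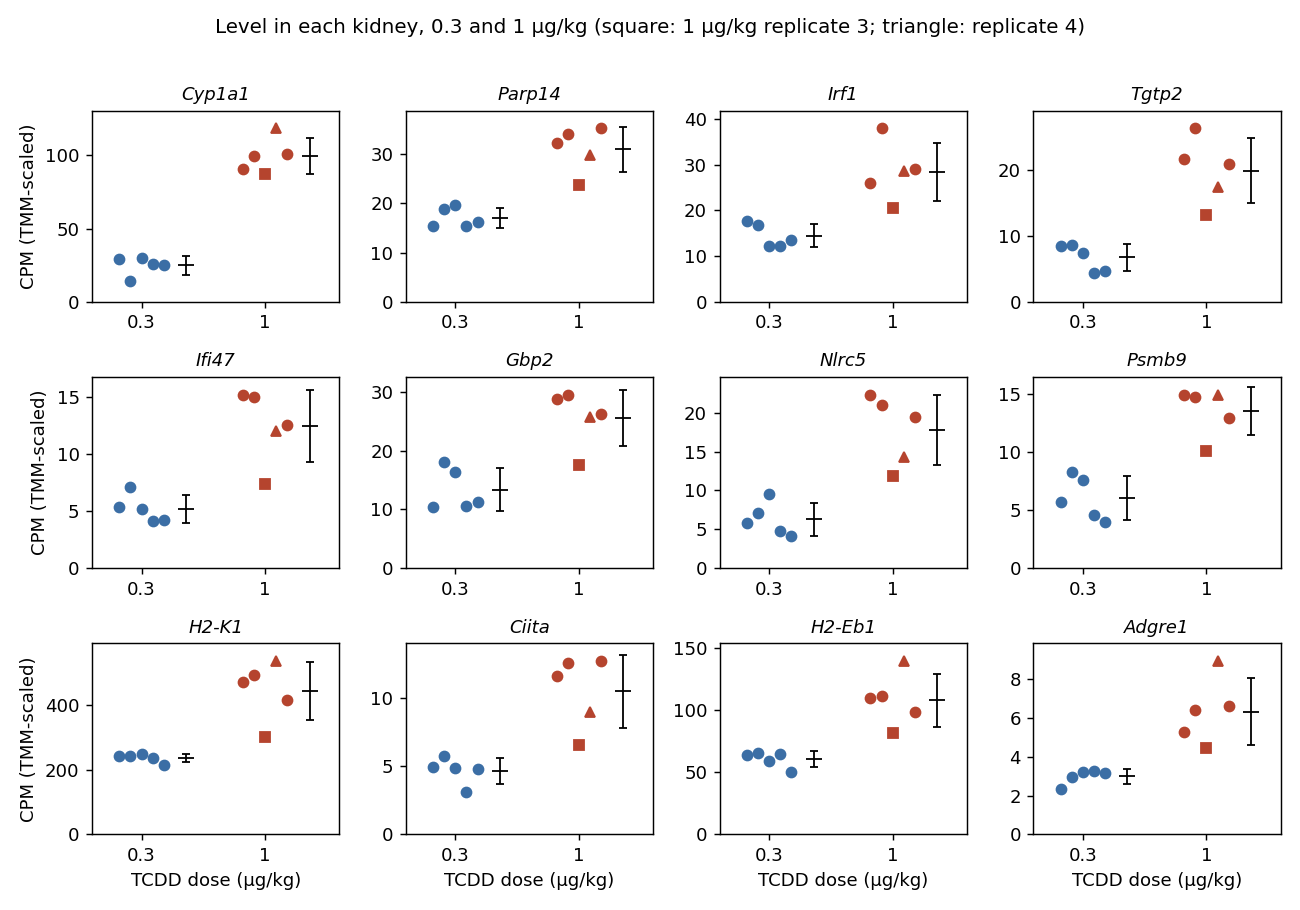
CPM of 12 called genes in each kidney at 0.3 µg/kg (blue) and 1 µg/kg (red), linear axes from 0, with mean and SD (n = 5) as black bars beside each group. Of these genes, only Gbp2 has groups that overlap, and the square for replicate 3 at 1 µg/kg is the lowest red point in each panel.

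The type I interferon list holds the antiviral effectors. Of 60 tested genes, 53 had a positive log2 fold change and the median was 0.38, but only Parp14 and Lgals3bp rose past the threshold. Parp14, an ADP-ribosyltransferase, went from 15.4, 18.9, 19.7, 15.4 and 16.2 CPM to 32.2, 34.2, 23.7, 29.9 and 35.3 CPM (log2 fold change 0.86 ± 0.12 SE, edgeR adjusted p = 0.00150). Lgals3bp, a secreted galectin-binding glycoprotein, went from 56.9, 53.8, 47.6, 58.1 and 49.3 CPM to 79.5, 86.3, 63.5, 87.5 and 88.5 CPM (0.61 ± 0.09 SE, edgeR adjusted p = 0.00337). Both kept separate groups. Among well-known antiviral genes, Ifit1 had a log2 fold change of 0.57, Isg15 of 0.50, Oas2 of 0.72 and Rsad2 of 0.25, none called. Without replicate 3 of 1 µg/kg, 5 genes of the list were called. Bst2, which tethers budding virus to the cell, missed the threshold with 0.77 ± 0.17 (SE, edgeR adjusted p = 0.0968). The type I and the GTPase lists were not tested against each other.

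**Figure D3:**
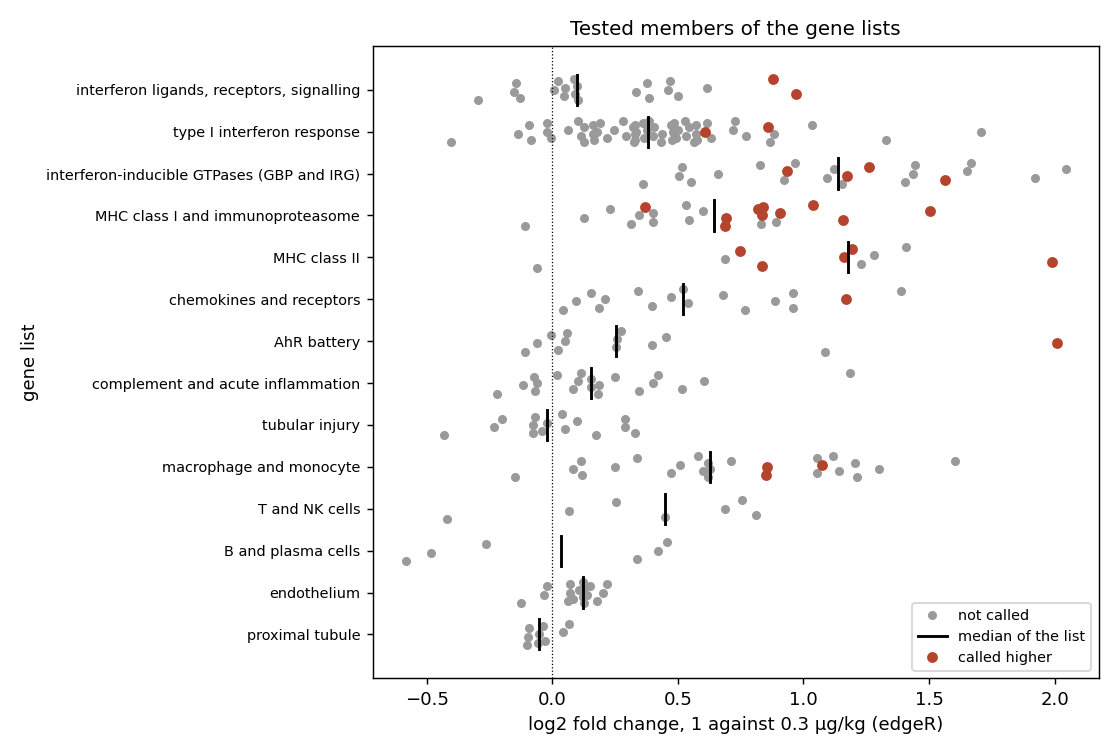
Log2 fold change between 1 and 0.3 µg/kg of each tested member (points) of 14 lists, with called genes in red and the list median as a black line. The GTPase and class II lists have medians of 1.14 and 1.18, and the proximal tubule and tubular injury lists lie around 0.

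Only 1 of 17 tested chemokine and receptor genes was called higher. Cxcl10, a chemokine for CXCR3-bearing T cells, was at 2.04, 3.77, 2.12, 3.03 and 3.67 CPM at 0.3 µg/kg and at 8.27, 8.12, 4.58, 6.00 and 6.23 CPM at 1 µg/kg (log2 fold change 1.17 ± 0.23 SE, edgeR adjusted p = 0.0285). Its relative Cxcl9 had 0.96 ± 0.25 (SE, edgeR adjusted p = 0.241). All 17 tested members had a positive log2 fold change, with a median of 0.52, and without replicate 1 of 0.3 µg/kg 0 of them were called. The call of Cxcl10 was lost in 8 of the 17 other fits, among them those with 35 and 40 libraries. Apol7c, an apolipoprotein L family gene outside the lists, had the third largest fold change of all called genes. It went from 1.18, 0.789, 0.765, 0.927 and 0.596 CPM to 4.04, 2.78, 2.57, 4.36 and 2.99 CPM, with separate groups (1.98 ± 0.31 SE, edgeR adjusted p = 0.00462). Fyb, an adaptor of T cells and myeloid cells, had means of 1.09 ± 0.30 and 3.06 ± 0.49 CPM (SD, n = 5; edgeR adjusted p = 0.0380), and in contrast to the rest of the called genes its highest sample at 1 µg/kg was replicate 3. The call of Fyb was lost in 9 of the 17 other fits, the one without that library included.

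A few macrophage markers were called between the same groups. Of 25 tested macrophage and monocyte markers, 3 were called higher, 24 had a positive log2 fold change, and the median was 0.63. C1qa, a chain of complement C1q made mainly by macrophages, was at 10.8, 12.2, 10.1, 12.5 and 12.8 CPM at 0.3 µg/kg and at 19.3, 20.4, 15.6, 32.0 and 19.0 CPM at 1 µg/kg. Adgre1, which encodes the macrophage surface protein F4/80, was at 2.35, 2.98, 3.24, 3.28 and 3.16 CPM and at 5.27, 6.44, 4.45, 8.97 and 6.61 CPM. Mpeg1, a pore-forming protein of macrophages, had 12.2 ± 2.66 and 22.0 ± 4.82 CPM (SD, n = 5). The log2 fold changes were 0.86 ± 0.16, 1.07 ± 0.21 and 0.85 ± 0.16 (SE; edgeR adjusted p = 0.0168, 0.0303 and 0.0197). All 3 were highest in replicate 4 of 1 µg/kg, the library with adrenal transcripts, and without it only C1qa was called (edgeR adjusted p = 0.0281, with 0.118 for Adgre1 and 0.0517 for Mpeg1). Without replicate 1 of 0.3 µg/kg none of the 3 was called, and over the 17 other fits Adgre1 was lost in 8, Mpeg1 in 6 and C1qa in 2. In bulk kidney, more cells of a type and more RNA per cell cannot be told apart. Csf1r, which resident macrophages also carry, had 72.1 and 78.1 CPM as group means, and Cd68 had 4.16 and 4.53 CPM; neither was called.

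Summed over the 26 markers, the macrophage level was 178 to 191 CPM at 0.3 µg/kg and 214 to 341 CPM at 1 µg/kg, with no overlap between groups. The 11 general leukocyte markers summed to 75.7 to 85.9 CPM and 90.6 to 122 CPM, none of them called. T and NK cell markers were low: 7 of 24 passed the filter, Cd3e, Cd3d, Cd3g, Nkg7, Gzma, Gzmb and Prf1 did not, and the list summed to 13.0 to 17.6 CPM at 0.3 µg/kg and 11.8 to 22.7 CPM at 1 µg/kg, 0 called. B and plasma cell markers overlapped between groups (8.71 to 15.8 and 9.10 to 22.5 CPM), with 0 of 6 called. Of the dendritic cell markers 0 of 8 were called, and Itgax and Clec9a had separate groups (log2 fold changes 0.88 and 0.77). The part of these cells in the changes of the MHC and GTPase genes was not tested.

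No marker of the kidney's own cells was called. All 9 proximal tubule markers were tested, none was called, and their median was -0.05. Their sum was 16258 to 17191 CPM at 0.3 µg/kg and 15574 to 17493 CPM at 1 µg/kg. The 17 endothelial markers had a median of 0.12, the 6 podocyte markers -0.02 and the 10 distal nephron markers -0.09, none called. Of 15 tubular injury genes 0 were called and the median was -0.02. Havcr1, the injury marker KIM-1, had means of 1.12 and 1.37 CPM. Among 20 complement and inflammation genes 0 were called; C4b came closest with 1.19 ± 0.25 (SE, edgeR adjusted p = 0.187).

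The same genes were looked up in other mice, by comparing 3 with 0.1 µg/kg, which brackets the same step and shares no library with it. This comparison called 145 of 15326 genes (0.946%), 125 of them higher (0.816%). All 30 genes were tested there and all 30 were higher, where 50.4% of all genes tested were. By the same threshold 17 of the 30 were called higher, which is 56.7% of the 30 and 13.6% of the 125. Their median log2 fold change was 1.06, and the median over all genes tested was 0.0017. Irf1 had 0.92 ± 0.20 (SE, edgeR adjusted p = 0.0462), Gbp2 1.44 ± 0.17 (0.000154) and Cxcl10 1.81 ± 0.22 (4.71e-05). The 5 class II genes of the 30 were not called there: Ciita had 0.98 ± 0.40 (SE, edgeR adjusted p = 0.418), H2-Aa 1.04 ± 0.21 (0.0734) and H2-Eb1 0.85 ± 0.23 (0.202). Cyp1a1, over this wider dose gap, had 5.74 ± 0.18 (SE, edgeR adjusted p = 3.00e-08). The count of 17 was 9, 11 and 10 without replicates 2, 3 and 4 of 0.1 µg/kg, 11 without replicate 2 of 3 µg/kg, and 27 with DESeq2.

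**Figure D4:**
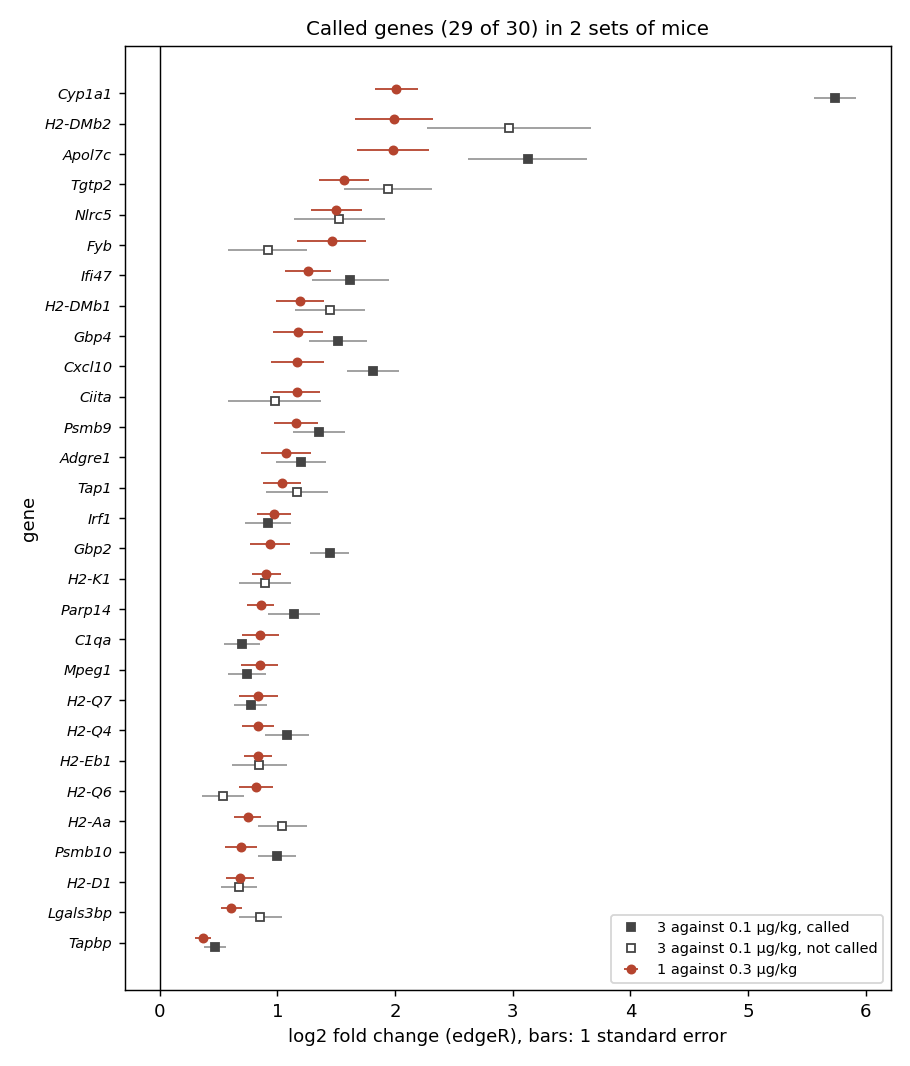
Log2 fold changes of 29 of the 30 called genes, with 1 standard error, for 1 against 0.3 µg/kg (red) and for 3 against 0.1 µg/kg in other mice (squares, filled where called). All 58 points lie to the right of 0, and 16 of the squares are filled.

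The dose step was compared with other steps of similar size in disjoint libraries, by subtracting their log2 fold changes (30 libraries in 1 edgeR fit of 16913 genes). The adjoining steps, 0.1 to 0.3 and 1 to 3 µg/kg, share libraries with this step and were not compared with it. Against the step from 0.03 to 0.1 µg/kg, 0 genes (0%) differed after adjustment, 726 had an unadjusted p under 0.05 (846 by chance), and the lowest edgeR adjusted p was 0.104. Against the step from 3 to 10 µg/kg, 0 genes (0%) differed, 995 had an unadjusted p under 0.05, and the lowest edgeR adjusted p was 0.0726. DESeq2 called 4 and 21 genes. The 4 include Fcgr4, an Fc receptor of monocytes and macrophages, Adgre1 and Parp14, and all 4 had a larger rise from 0.3 to 1 µg/kg. The 21 include Psmb9 and Irgm2 in that direction and Cbr1 and Gsta2 in the other. Since the 30 genes were called on libraries that enter both tests, their own step values are a description: medians of 0.07 from 0.03 to 0.1 µg/kg, 0.95 from 0.3 to 1 µg/kg and 0.29 from 3 to 10 µg/kg. A library at 0.03 µg/kg, replicate 1, held 798 CPM of adrenal markers, and without it both counts were again 0.

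Levels were then read over all 7 doses. Cyp1a1 had means of 2.16, 5.52, 24.8, 99.5, 294, 1570 and 2540 CPM from 0.03 to 30 µg/kg, each above the one before. Tgtp2 had 4.63, 4.70, 6.73, 19.9, 17.8, 18.8 and 9.68 CPM. For Tgtp2 the samples at 1, 3 and 10 µg/kg overlapped, and the mean at 30 µg/kg was below all 3 of those means. The highest of the 7 means was at 1 µg/kg for 6 of the 30 genes (Gbp4, Nlrc5, Psmb9, Tap1 and Tgtp2 among them), at 10 µg/kg for 22 and at 30 µg/kg for C1qa and Cyp1a1. All 30 had their lowest mean at 0.03, 0.1 or 0.3 µg/kg. The 30 were called for a higher level at 1 than at 0.3 µg/kg in libraries that enter these means. So the lowest mean could not lie at 1 µg/kg nor the highest at 0.3 µg/kg. That choice of genes can also raise the means at 1 µg/kg, so these counts are a description. The 23 listed GTPases summed to 149 ± 6.91, 162 ± 17.4, 199 ± 44.9, 488 ± 142, 482 ± 260, 502 ± 115 and 314 ± 69.9 CPM over the 7 doses (SD, n = 5). At 3 µg/kg 2 of the 5 mice were high (652 and 854 CPM) and the other 3 lay between 264 and 357 CPM, while the lowest sample at 1 µg/kg, replicate 3, had 289 CPM. At 30 µg/kg all 5 mice lay between 194 and 372 CPM.

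**Figure D5:**
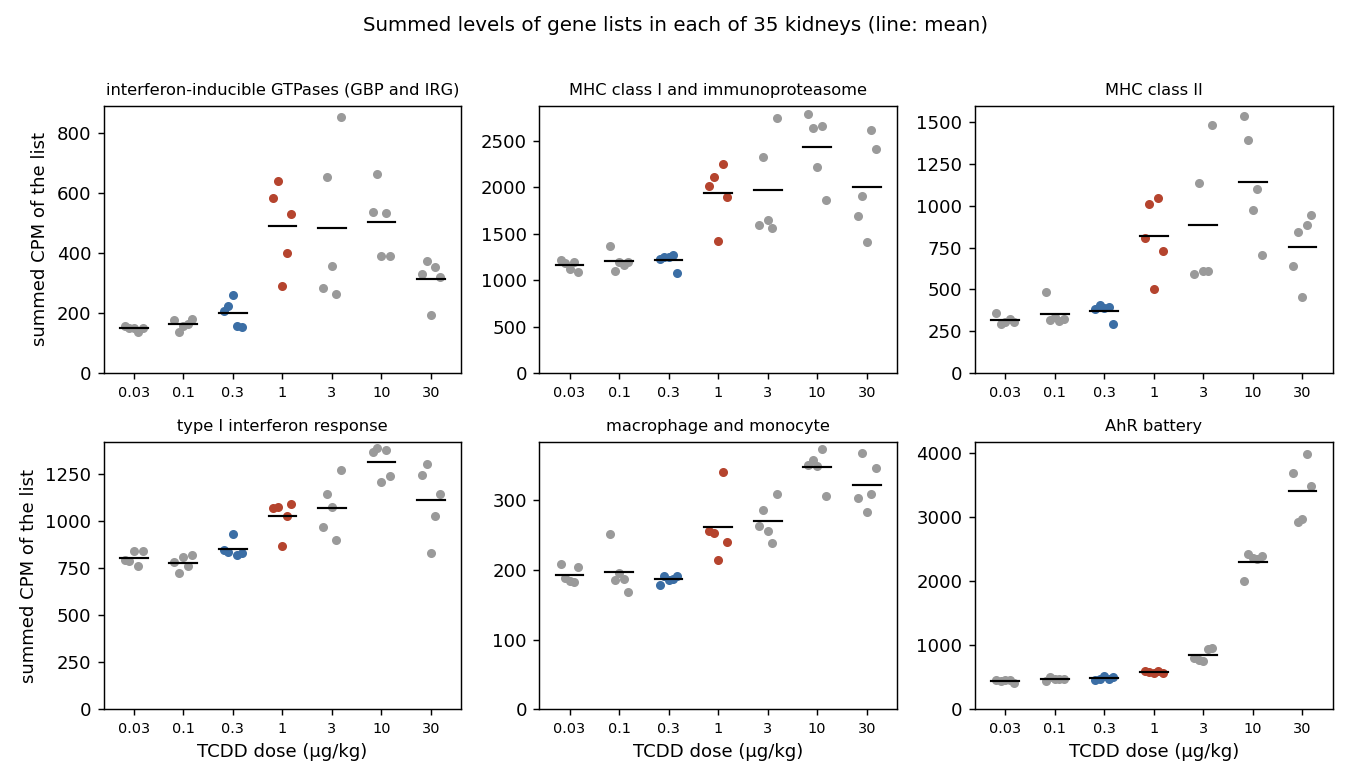
Summed CPM of 6 gene lists in each of the 35 kidneys given TCDD, by dose, with 0.3 µg/kg in blue, 1 µg/kg in red and group means as lines; the axes start at 0. The GTPase sum is 153 to 259 CPM at 0.3 and 289 to 641 CPM at 1 µg/kg. The sum of the receptor's battery keeps climbing to 2915 to 3984 CPM at 30 µg/kg, where its mean is 3406 CPM. Most of that sum is Cyp1a1, with a mean of 2540 CPM at 30 µg/kg.

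The title numbers in the labels fall into a run up to 27 and a run from 28, with 3 and 2 samples per group; what the number marks is not stated. All 30 genes were higher at 1 µg/kg within both runs, with medians of 0.78 and 1.13 on the log2(CPM + 0.5) scale. The genes were called on these same libraries, so this describes them and is no separate test. With the run as a covariate 28 of the 30 were called. Reads from the 2 strands were not told apart, and 14 of the 30 genes share exonic bases with another gene in the GENCODE M21 annotation, over 10% in 4 of them, with Tapbp (29.0%), H2-Q4 (19.1%) and Fyb (10.2%) among these.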

How the data were processed

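Whole right kidneys were profiled by bulk RNA-seq, with 5 mice per dose. The authors deposited 1 file of whole-number read counts per gene for each sample, in the layout of STAR gene counts, and the unstranded count column was used (sense share 50.6% to 51.0%). FastQC 0.11.7, Trimmomatic 0.39, STAR 2.7.3a and DESeq2 are named per the submitters' processing notes, which name both GRCm39 and mm10 without a role. Lines naming no gene (unmapped 1.64% to 2.38%, multimapping 8.04% to 9.25%, no feature 5.41% to 7.20%, ambiguous 5.40% to 5.72%) entered neither library sizes nor tests. Of 55359 gene IDs, 52083 had a symbol, and IDs without one held 0.731% of counts.

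Genes were filtered with filterByExpr, scaled by TMM and tested with edgeR 4.0.16 (quasi-likelihood, robust, R 4.3.3) on the 10 libraries, with Benjamini-Hochberg adjustment over all genes tested. A gene was called at an adjusted p under 0.05. DESeq2 1.42.0 was an alternative, beside other scalings, no filter, 35 or 40 libraries in the fit, the title run as covariate, and each library left out. The scripts were tested on simulated data. Printed CPM were scaled by TMM over the 35 TCDD libraries (factors 0.964 to 1.09), and SD is over the 5 mice of a group. Replicate numbers follow deposition order. The 20 pairs of replicates differed by 8.22 to 22.7 in chi-square per degree of freedom, so none was a duplicate.

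The comparison and the gene lists were chosen with earlier results of these data known. Named genes are Cyp1a1, Cyp1b1, Ahrr, Aldh3a1, Irf1 and Irf7, the 15 largest rises and 10 largest falls among called genes with separate groups, the 3 genes of lowest p per gene list and the 2 per marker list. Every other gene with values, including called genes outside that rule, was chosen after its values were seen. A called gene is counted in the totals but not reported here by name. SE values come from the edgeR fit. Count floors cover counting error only.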

Additional observations from a re-analysis of the deposited data

Results flagged for a closer look

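In 14 of 162 groups of 5 values looked at, 1 sample stood far from the other 4 by Dixon's criterion, where chance gives about 8.1, or 1 in 20. Replicate 1 at 0.3 µg/kg was high in 3 immediate early genes: Fos at 5.20 CPM (next 1.05), Egr1 at 24.3 CPM (next 6.37) and Ier2 at 15.1 CPM (next 10.5). Replicate 2 at 0.3 µg/kg was high in Ahrr at 2.54 CPM (next 0.927) and Cxcl9 at 5.31 CPM (next 3.16). Aldh3a1 was low in replicate 3 at 0.3 µg/kg, with 0.883 CPM (next 2.10).

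At 1 µg/kg, replicate 3 was low in the MHC class I genes H2-Q4 at 24.6 CPM (next 39.5) and H2-Q7 at 11.5 CPM (next 20.6), and in the dendritic cell gene Clec9a at 2.07 CPM (next 3.12). The same library was high in Slc34a1, the phosphate transporter of the proximal tubule, at 7040 CPM (next 6330). Replicate 4 was high in Star, a gene of steroid synthesis, at 185 CPM (next 6.03), in Lep at 1.58 CPM (next 0.394) and in Cd44 at 4.06 CPM (next 2.78). Replicate 1 had 20300000 gene counts, where the next of its group had 16800000.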

How the results depend on the processing

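All 30 called genes kept their direction in all 17 alternatives. Each alternative reused libraries on which the genes were called, so a kept direction is not a separate test. Of 510 values of a called gene in an alternative, 407 stayed past the threshold and 103 did not. With 35 or 40 libraries in the fit 21 and 25 of the 30 were called. The count of 30 was 64 with no filter on low counts (62 higher and 2 lower, the latter Calb1 and Ttr). With DESeq2 it was 63 (61 higher and 2 lower, the latter Pck1 and Psat1). The 62 include Cyp11b2, one of the adrenal genes whose sum was high in replicate 4 of 1 µg/kg. Leaving out each sample in turn gave 17 to 48 calls, all higher except 0 to 1 lower: 17 without replicate 1 of 0.3 µg/kg, 48 without replicate 3 of 1 µg/kg, and 1 lower (Calb1) without replicate 4 of 0.3 µg/kg. The log2 difference of Star reversed to -0.12 without replicate 4 of 1 µg/kg, in a range up to 3.34 over the samples left out. For 3 against 0.1 µg/kg the 145 calls became 353 with no filter, 290 with DESeq2 and 64 to 200 when a sample was left out (64, 94 and 94 without replicates 2, 3 and 4 of 0.1 µg/kg, 88 and 86 without replicates 2 and 3 of 3 µg/kg), with 27 of the 30 shared under DESeq2 and 9 to 22 when a sample was left out. The differences between steps, 0 and 0 calls, became 3 and 2 with no filter and 4 and 21 with DESeq2; leaving out a sample gave 0 to 3 for the lower step, with 1 without replicate 1 and 3 without replicate 3 of 1 µg/kg. The fit without replicate 1 of 0.03 µg/kg was chosen after seeing the data. The causes of these changes were not tested. No paired analysis was possible because the labels give no replicate numbers that groups share. With 15798331 to 23203466 gene counts per library, 3 counts are 0.129 to 0.190 CPM, and ligand genes lie at or near that floor.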

Other observations

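No gene passed the main edgeR test on the falling side. The genes named here did not pass it and were chosen after their values were seen. In other fits, Psat1 and Pck1 were called lower with DESeq2. Calb1 was called lower with no filter on low counts and without replicate 4 of 0.3 µg/kg. Psat1, an enzyme of serine synthesis, had the lowest adjusted p of any falling gene, with 49.3 ± 1.77 CPM at 0.3 and 39.3 ± 2.39 CPM at 1 µg/kg (SD, n = 5), a log2 difference of -0.33 ± 0.07 (SE, edgeR adjusted p = 0.0860) and no overlap between groups. Calb1, the calcium-binding protein of the distal tubule, had 571 ± 52.3 and 472 ± 35.0 CPM (edgeR adjusted p = 0.189). Pck1, the gluconeogenic enzyme of the proximal tubule, had 1394 ± 226 and 966 ± 171 CPM (edgeR adjusted p = 0.660). In all, 41 genes (0.267%) had all 5 samples at 1 µg/kg below all 5 at 0.3 µg/kg, against 118 (0.767%) above.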
